A study of Mus musculus with 6 samples.

Results

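Transcripts of 27 genes of the peroxisome were followed in ribosome-bound RNA from mouse corpus callosum, the white matter tract that joins the hemispheres. The genes were chosen by name and role, as peroxins, acyl-CoA transporters and enzymes of lipid oxidation and ether lipid synthesis, and all 27 were found among the 39017 genes of the count table. The mice were C57BL/6 and carried RiboTag together with Olig1-Cre, so that RPL22, a protein of the large ribosomal subunit, bears an HA tag where Cre has been active, and an anti-HA antibody pulls down tagged ribosomes with their RNA. The Cre is driven by Olig1, a gene of the oligodendrocyte lineage, so the pulldown is meant to hold progenitors as well as mature cells. The 3 cuprizone libraries (replicates 30, 31 and 32) came from mice given a diet with 0.2% cuprizone, a copper chelator that kills oligodendrocytes, and the 3 vehicle libraries (replicates 24, 26 and 27) from control mice with the same alleles. The protocol describes females of 8 to 10 weeks, 6 or 9 weeks of feeding and 3 weeks of recovery, without saying which of these times applies to the cuprizone libraries. The labels do not say whether a library came from 1 animal or a pool, so p-values measure the spread between these libraries.

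Peroxisomes are small organelles bounded by a single membrane that shorten very long chain and branched fatty acids and make the first part of ether lipids. Peroxins, the products of the Pex genes, build the membrane and bring folded enzymes into the matrix. Plasmalogens, the ether lipids with a vinyl bond, are abundant in myelin, and human peroxisome disorders often damage white matter.

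Of the 27 genes 2 fell with cuprizone, and the others differed by less than the test could call. Agps, the enzyme that forms the ether bond of plasmalogens, fell to 37.5 ± 2.68 CPM in cuprizone libraries, against 58.5 ± 2.38 CPM in vehicle libraries (CPM, counts scaled to the library size as adjusted by TMM; SD, n = 3 each). Pex5l, a relative of the import receptor Pex5, fell to 164 ± 61.3 CPM in cuprizone libraries, against 392.2 ± 7.75 CPM in vehicle libraries. In edgeR's quasi-likelihood test, with p-values adjusted by Benjamini-Hochberg over 16569 genes and a threshold of 0.05, these were the 2 members called lower, and 0 were called higher. Of all genes tested, 5.7% were called lower and 1.87% higher, so 2 of 27 (7.41%) was a share near that of the whole table. The median log2 fold change of the members was -0.13, beside 0.02 for all genes tested, and 18 of 27 had a negative value (17 to 19 with other scalings, filters or tools, where the sign of Abcd3 or Phyh changed), beside 47.4% of all genes.

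By other criteria the members leaned to lower values, in counts that include Agps and Pex5l. At an unadjusted p under 0.05 there were 10 members lower (37% of 27) and 0 higher, beside 12.8% of all genes lower and 10.5% higher. The CPM ranges of the groups did not overlap for 9 members that were lower in cuprizone (33.3% of 27), where 17.6% of all genes were of that kind, and for 1 that was higher (3.7%), where 12.6% of all genes were. DESeq2 called 3 members lower (8.46% of all genes) and 0 higher (5.21% of all genes), adding Pex19 to Agps and Pex5l. The 95% interval of the log2 fold change, not adjusted for the number of genes, lay within -1 and 1 for 26 of the 27, and that of Pex5l reached past -1.

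**Figure D1:**
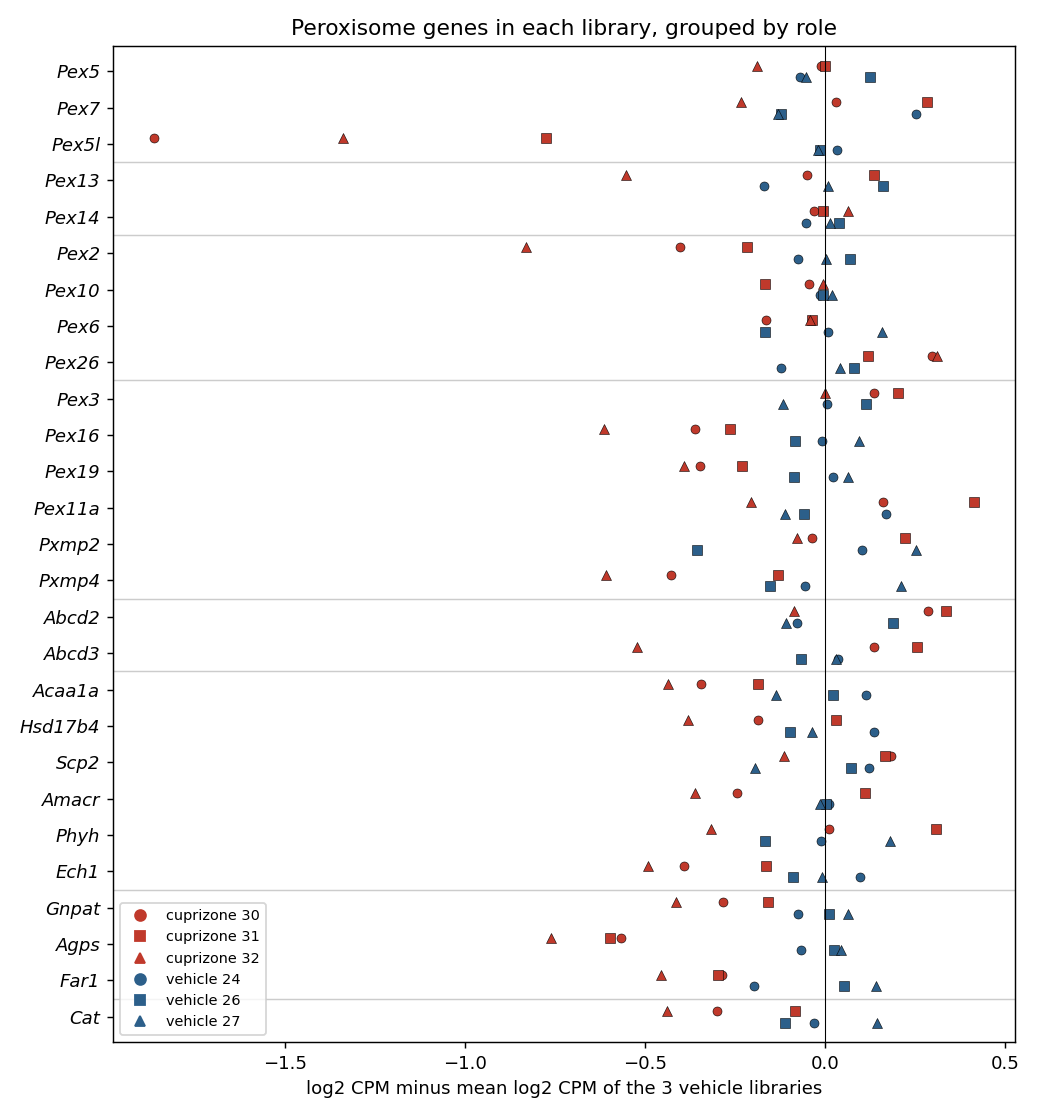
Each point is 1 library, with the log2 CPM of a gene less the mean of the 3 vehicle libraries on the x axis and the 27 genes, grouped by role, down the y axis. All 3 cuprizone points lie below the vehicle points for 9 genes, Agps and Pex5l among them (33.3%, beside 17.6% of all genes tested). They lie above them for 1, Pex26 (3.7%, beside 12.6%). Cuprizone replicate 32 (triangle) is the lowest cuprizone point for 22 of the 27 genes.

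Marker genes were read beside the label of the cells and the diet. The 6 libraries hold no RNA from before the pulldown and none from mice without the tag. Marker levels therefore do not measure how far the pulldown selected its cells. The 8 markers of mature oligodendrocytes were present in all libraries and all fell, with a median log2 fold change of -3.27 and summed levels of 7756 to 14524 CPM in cuprizone libraries, against 58223 to 79768 CPM in vehicle libraries. Among them Mbp, a main protein of myelin, averaged 5574 ± 2329 CPM in cuprizone and 34363 ± 9088 CPM in vehicle libraries. Olig1 was at 661 ± 167 CPM in cuprizone and 1438 ± 184 CPM in vehicle libraries, and Rpl22, the tagged gene, at 76.4 ± 9.97 CPM in cuprizone and 70.4 ± 7.14 CPM in vehicle libraries. Markers of other cells were also present, none of them at 0 over the libraries. The summed astrocyte markers were above the summed mature oligodendrocyte markers in each cuprizone library and below them in each vehicle library. The 8 astrocyte markers summed to 15779 to 30278 CPM in cuprizone libraries and 22508 to 25427 CPM in vehicle libraries, and the 10 microglia and macrophage markers to 1504 to 3439 CPM in cuprizone libraries and 1018 to 1977 CPM in vehicle libraries. In such a mixture, fewer cells of a type and less RNA per cell cannot be told apart, and the part of this shift in cell types in the results below was not tested. Total counts were 19455245 to 22381307 in cuprizone libraries and 18549360 to 18771737 in vehicle libraries, and each member had at least 178 counts in every library.

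In ether lipid synthesis, 3 of 3 members had groups that did not overlap and were lower in cuprizone, beside 17.6% of all genes tested. The role is small and was singled out by these same values, so the count is a description only. Gnpat attaches a fatty acid to dihydroxyacetone phosphate, Agps swaps that acid for a fatty alcohol, and Far1 supplies the alcohol by reducing an acyl-CoA. Agps (ENSMUSG00000042410, chromosome 2, 75832177 to 75931350, plus strand, GRCm38) had 39.5, 38.7 and 34.5 CPM in cuprizone replicates 30, 31 and 32, against 55.8, 59.5 and 60.3 CPM in vehicle replicates 24, 26 and 27. The highest cuprizone value lay well under the lowest vehicle value, a log2 fold change of -0.64 ± 0.11 (SE) with an adjusted p of 0.0133 in edgeR. The adjusted p was 0.0609 without vehicle replicate 26 and 0.0708 without vehicle replicate 27, with log2 fold changes of -0.62 in both.

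The other enzymes of this step moved less. Gnpat had 52.6, 57.3 and 48.0 CPM in cuprizone replicates 30, 31 and 32, against 60.7, 64.5 and 66.9 CPM in vehicle replicates 24, 26 and 27. Far1 had 28.2, 28.0 and 25.1 CPM in the same cuprizone libraries, against 30.1, 35.8 and 38.0 CPM in the vehicle libraries. For both genes every cuprizone library was below every vehicle library, yet by a small margin, and neither passed edgeR's test over all genes (log2 fold change -0.28 ± 0.11 with adjusted p = 0.182 for Gnpat, -0.35 ± 0.13 with adjusted p = 0.152 for Far1). Tmem189, which is no member and comes from the list of later steps, encodes the desaturase that puts the vinyl bond into plasmalogens. It had 72.7, 89.8 and 74.9 CPM in cuprizone replicates 30, 31 and 32, against 190, 188 and 169 CPM in vehicle replicates 24, 26 and 27, and fell by 1.21 on the log2 scale (SE 0.13, adjusted p = 0.00289 in edgeR). It passed the test in all 13 alternatives, and its exons share 694 bases with Gm20431 on the same strand and 312 bases with Cebpb on the opposite strand, so some of its reads could belong to these genes. Of the 9 listed genes of ether lipid completion and breakdown, Tmem189 was the only one called in edgeR (11.1%, beside 5.7% of all genes called lower). DESeq2 called 1 higher and 1 lower, beside 5.21% and 8.46% of all genes. At an unadjusted p under 0.05 in edgeR, 2 were higher and 2 lower, beside 10.5% and 12.8% of all genes. The list median was -0.24.

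**Figure D2:**
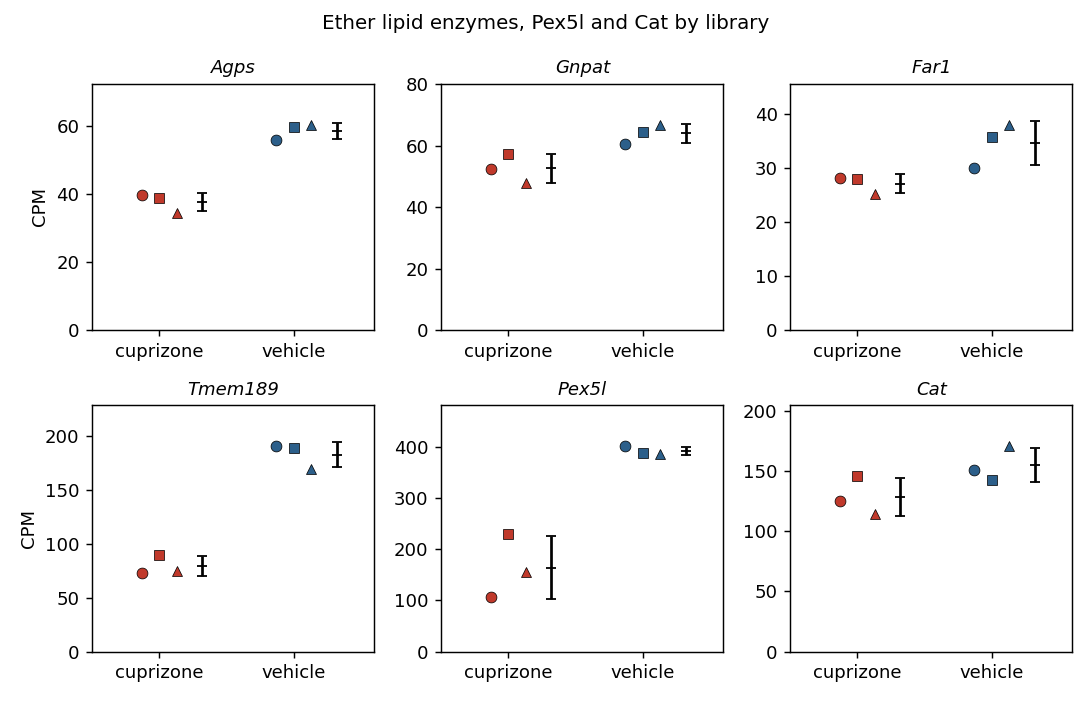
CPM of the ether lipid enzymes Agps, Gnpat, Far1 and Tmem189, of Pex5l and of catalase (Cat), with cuprizone libraries in red (circle, square and triangle for replicates 30, 31 and 32) and vehicle libraries in blue (the same shapes for 24, 26 and 27), beside the mean and SD of each group. The groups are apart in all panels except that of Cat, where cuprizone replicate 31 at 145 CPM lies above vehicle replicate 26 at 143 CPM.

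The sequences upstream of the ether lipid genes are shown because these 3 members lay lower together. They are RefSeq promoter windows of GRCm38.p6, which reach from 250 bases before to 50 bases after the transcription start and were held for 20 of the 27 members. Only bases before the start are printed, on the plus strand, 5′ to 3′, for chr2:75831927-75832176 (Agps), chr7:113513584-113513833 (Far1) and chr8:124862783-124862882 (Gnpat, the first 100 bases of the window, which hold its E-box). Capitals mark 3 motifs searched on both strands: AGGTCA, the core motif of nuclear receptors such as the PPARs, CACGTG, an E-box, and GGGCGG, a GC box.
Agps: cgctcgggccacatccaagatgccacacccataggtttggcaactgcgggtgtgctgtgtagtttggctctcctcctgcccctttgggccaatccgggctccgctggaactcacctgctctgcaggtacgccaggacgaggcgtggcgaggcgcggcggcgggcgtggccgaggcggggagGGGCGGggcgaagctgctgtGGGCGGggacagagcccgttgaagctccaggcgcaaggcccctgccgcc
Far1: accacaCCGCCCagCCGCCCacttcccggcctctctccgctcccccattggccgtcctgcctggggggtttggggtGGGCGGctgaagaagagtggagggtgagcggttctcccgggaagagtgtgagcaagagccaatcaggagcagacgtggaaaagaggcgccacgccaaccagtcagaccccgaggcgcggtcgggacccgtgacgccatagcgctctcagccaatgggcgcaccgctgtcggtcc
Gnpat: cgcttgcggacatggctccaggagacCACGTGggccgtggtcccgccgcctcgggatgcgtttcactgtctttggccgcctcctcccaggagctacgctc
Agps held GC boxes that begin 69 and 49 bases before the start and neither of the other motifs. Far1 held 3 GC boxes upstream, at 244 and 236 bases before the start on the opposite strand and at 174 bases, and Gnpat an E-box at 224 bases and, outside the printed stretch, a GC box on the opposite strand at 31 bases.

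Across the members the GC box was the most frequent of the 3 motifs in these windows. It stood in 17 of 24 member windows (70.8%), beside 35.7% of all 32851 windows, and belongs to 16 of the 20 members. Those 32851 windows were not limited to genes with counts here, as the members are, and the motif was chosen after the members' results were seen. The members with a GC box include Pex5, Pex7, Pex14 and Scp2, whose groups overlapped, as well as Agps, Far1 and Gnpat, so it does not set the lower genes apart. The E-box stood in 1 of 24 (4.17%), that of Gnpat, beside 7.15% of all windows. The nuclear receptor motif stood in 3 of 24 (12.5%), those of Cat, Scp2 and Phyh, beside 16.3% of all windows. The stretches around it are shown for Cat at chr2:103485324-103485383 and Scp2 at chr4:108118628-108118687, both on the minus strand. Neither gene passed the test (adjusted p = 0.292 and 0.777 in edgeR), nor did Phyh (adjusted p = 0.967). The motif of Phyh begins 36 bases after the start and is not shown. The Scp2 window belongs to a start inside the gene, which spans 108043839 to 108144998, and not to its outermost start at 108144998.
Cat: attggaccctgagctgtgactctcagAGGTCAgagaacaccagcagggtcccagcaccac
Scp2: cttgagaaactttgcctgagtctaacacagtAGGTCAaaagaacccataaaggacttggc
Catalase, which breaks down the hydrogen peroxide that oxidation in the organelle gives off, had 125, 145 and 114 CPM in cuprizone replicates 30, 31 and 32, against 151, 143 and 170 CPM in vehicle replicates 24, 26 and 27. Its groups overlapped, and the log2 fold change was -0.27 ± 0.14 with a 95% interval of -0.60 to 0.06.

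Pex5l, listed with the import receptors Pex5 and Pex7 for its likeness to Pex5, moved apart from both. A role of Pex5l in import was not tested. Pex5 binds the carboxy-terminal import signal of most matrix enzymes and Pex7 the amino-terminal signal of a few, among them Agps and Phyh. Pex5l encodes a protein that resembles Pex5 and is known in neurons mainly as a partner of HCN channels, under the name TRIP8b. Pex5l (ENSMUSG00000027674, chromosome 3, 32949408 to 33143247, minus strand) had 108, 229 and 155 CPM in cuprizone replicates 30, 31 and 32, against 401, 388 and 387 CPM in vehicle replicates 24, 26 and 27. The cuprizone libraries spread widely below the vehicle range, with replicate 31 nearest to it, while the vehicle libraries lay close together. The log2 fold change was -1.26 ± 0.27, with an adjusted p of 0.0335 in edgeR. The call was lost when vehicle replicate 24, 26 or 27 or cuprizone replicate 30 or 32 was left out (adjusted p of 0.0628 to 0.103), and without cuprizone replicate 31 the log2 fold change was -1.58 with an adjusted p of 0.00712. Its exons share 340 bases with the antisense gene Gm37459 and 24 with 4930419G24Rik, of 8846 exonic bases, and whether reads were counted by strand is not stated in the labels.

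Cuprizone replicate 31 also had the highest summed oligodendrocyte markers of its group, 14524 CPM beside 7762 and 7756 CPM in replicates 30 and 32. The neuron markers summed to 2283, 1601 and 3167 CPM in cuprizone replicates 30, 31 and 32, against 1292, 2158 and 2184 CPM in vehicle replicates 24, 26 and 27. The part of these in the values of Pex5l was not tested. Pex5 averaged 40.7 ± 2.93 CPM in cuprizone and 42.6 ± 3.26 CPM in vehicle libraries, with a 95% interval of the log2 fold change of -0.33 to 0.20. Pex7 averaged 26.05 ± 4.64 CPM in cuprizone and 25.5 ± 4.04 CPM in vehicle libraries, with an interval of -0.38 to 0.44. The groups overlapped for both receptors.

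In the docking complex a loaded receptor meets the membrane. Pex14 had 54.9, 55.8 and 58.5 CPM in cuprizone replicates 30, 31 and 32, against 54.0, 57.6 and 56.6 CPM in vehicle replicates 24, 26 and 27. All 6 libraries lay within a few CPM, and the interval of the log2 fold change ran from -0.22 to 0.24. Pex14 shares 1776 of its 6272 exonic bases with the antisense gene Gm17029. Pex13, its partner in the pore, had 34.0, 38.7 and 24.01 CPM in cuprizone libraries and 31.3, 39.4 and 35.4 CPM in vehicle libraries in the same order, so only replicate 32 lay outside the vehicle range (log2 fold change -0.13 ± 0.19, adjusted p = 0.721 in edgeR).

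Receptors are ubiquitinated by a ring of peroxins and pulled back to the cytosol by an ATPase. Pex2, a RING subunit, had 37.3, 42.5 and 27.8 CPM in cuprizone replicates 30, 31 and 32, against 46.9, 51.9 and 49.5 CPM in vehicle replicates 24, 26 and 27. The groups did not overlap, replicate 32 was the lowest, and the log2 fold change of -0.46 ± 0.16 did not pass (adjusted p = 0.151 in edgeR). Its partner Pex10 averaged 11.3 ± 0.645 CPM in cuprizone and 11.9 ± 0.141 CPM in vehicle libraries. Pex6, a subunit of the ATPase, averaged 91.8 ± 4.52 CPM in cuprizone and 97.3 ± 10.8 CPM in vehicle libraries. Pex26, which anchors the ATPase to the membrane, was the single member whose cuprizone values all lay above the vehicle values, with 15.3, 13.5 and 15.4 CPM in cuprizone replicates 30, 31 and 32, against 11.4, 13.1 and 12.8 CPM in vehicle replicates 24, 26 and 27. Its log2 fold change of 0.24 ± 0.13 had an adjusted p of 0.299.

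Of the 6 genes that build and divide the membrane, Pex16 and Pex19 had separate groups, lower in cuprizone, and the others did not. That is 33.3%, beside 17.6% of all genes tested. Pex19 is the soluble chaperone of membrane proteins, Pex3 its dock and Pex16 the factor that recruits Pex3. Pex16 had 11.6, 12.4 and 9.77 CPM in cuprizone replicates 30, 31 and 32, against 14.9, 14.1 and 15.96 CPM in vehicle replicates 24, 26 and 27. Pex19 had 104, 113 and 101 CPM in the same cuprizone libraries, against 134, 125 and 138 CPM in the vehicle libraries. Neither pair of groups overlapped, and neither gene passed edgeR's test (log2 fold change -0.41 ± 0.14 for Pex16 and -0.32 ± 0.11 for Pex19, adjusted p = 0.135 for each), while DESeq2 gave Pex19 an adjusted p of 0.0432.

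Pex3 averaged 18.97 ± 1.34 CPM in cuprizone and 17.5 ± 1.40 CPM in vehicle libraries, a log2 fold change of 0.11 ± 0.12. Pex11a, which elongates the membrane before division, averaged 21.5 ± 4.52 CPM in cuprizone and 19.5 ± 2.07 CPM in vehicle libraries, and its groups overlapped. Of the membrane proteins with less defined roles, Pxmp4 averaged 29.7 ± 5.04 CPM in cuprizone and 38.7 ± 5.18 CPM in vehicle libraries (log2 fold change -0.38 ± 0.16, adjusted p = 0.211 in edgeR), and its groups overlapped by the margin between 35.2 CPM in cuprizone replicate 31 and 34.6 CPM in vehicle replicate 26. Pxmp2, a channel-forming protein, averaged 13.3 ± 1.54 CPM in cuprizone and 13.1 ± 2.72 CPM in vehicle libraries.

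**Figure D3:**
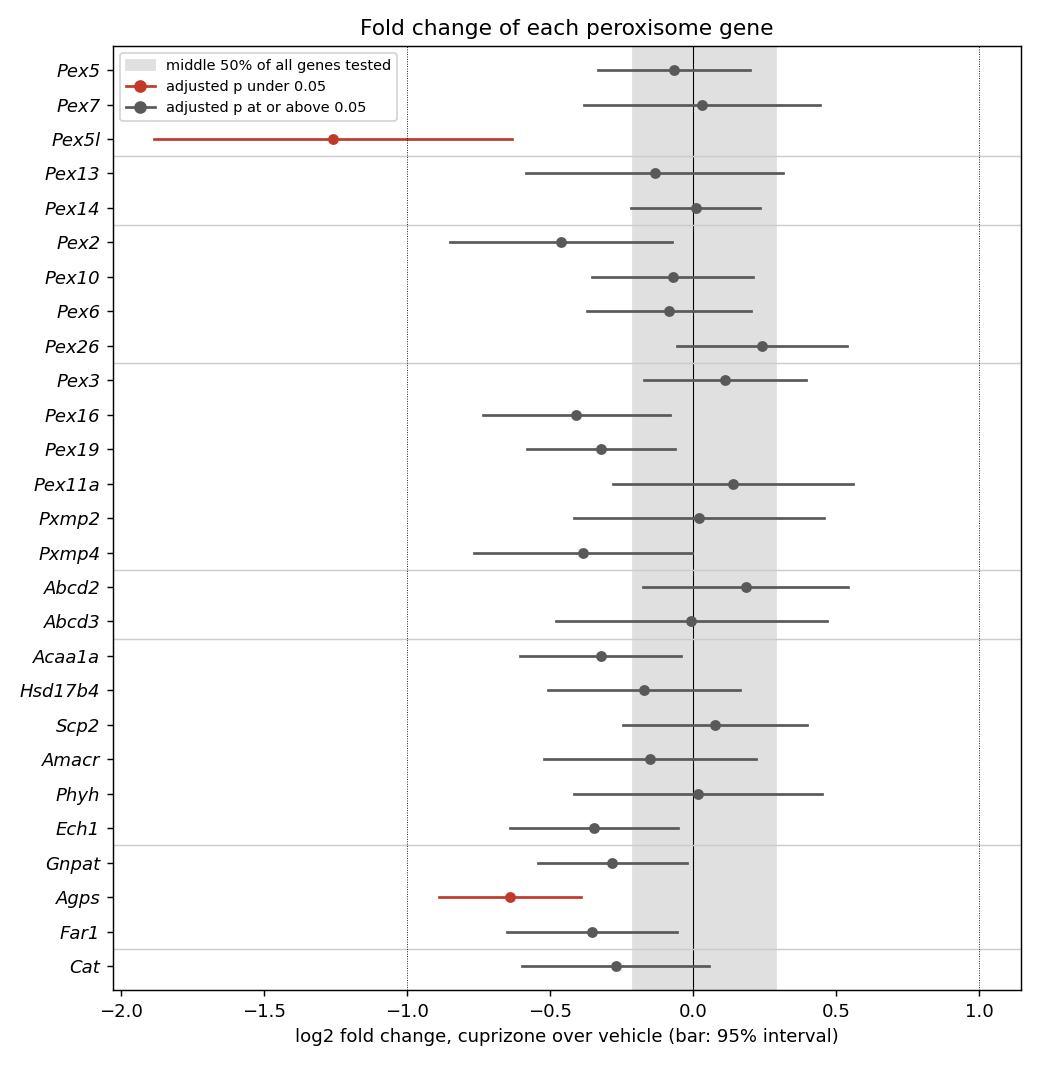
Log2 fold change, cuprizone over vehicle, of each member on the x axis with its 95% interval as a bar, and the genes down the y axis; red marks an adjusted p under 0.05 in edgeR, the grey band the interquartile range of all genes tested (-0.21 to 0.29), and dotted lines a 2-fold change. Agps at -0.64 and Pex5l at -1.26 are red, and the interval of Pex5l alone crosses a dotted line.

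The transporters of fatty acyl-CoA into the organelle showed no separation. Abcd2 had 57.1, 59.1 and 44.2 CPM in cuprizone replicates 30, 31 and 32, against 44.4, 53.4 and 43.4 CPM in vehicle replicates 24, 26 and 27 (log2 fold change 0.18 ± 0.15). Abcd3 had 100, 109 and 63.5 CPM in the cuprizone libraries, against 93.5, 87.2 and 93.3 CPM in the vehicle libraries. Its cuprizone values lay on both sides of the vehicle range, and the log2 fold change was -0.01 ± 0.20, or 0.20 without cuprizone replicate 32, with adjusted p of 0.988 and 0.274.

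Of the 6 members in oxidation, a thiolase and an isomerase had separate groups, lower in cuprizone, and the other enzymes did not. That is 33.3%, beside 17.6% of all genes tested. Acaa1a, a thiolase, had 47.9, 53.4 and 44.9 CPM in cuprizone replicates 30, 31 and 32, against 65.8, 61.8 and 55.3 CPM in vehicle replicates 24, 26 and 27. Ech1, an isomerase for unsaturated chains, had 67.8, 79.3 and 63.2 CPM in the same cuprizone libraries, against 95.2, 83.6 and 88.4 CPM in the vehicle libraries. Both had groups that did not overlap, with log2 fold changes of -0.32 ± 0.12 and -0.35 ± 0.12, and neither passed edgeR's test (adjusted p = 0.162 and 0.154). The exons of Acaa1a share 290 bases with Myd88 on the opposite strand.

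Hsd17b4, the multifunctional enzyme that hydrates and dehydrogenates in the middle of the cycle, averaged 108 ± 15.5 CPM in cuprizone and 122 ± 10.4 CPM in vehicle libraries, with overlapping groups and an interval of -0.51 to 0.16. Scp2, whose long form is the thiolase of branched chains, averaged 65.4 ± 7.31 CPM in cuprizone and 62.0 ± 7.12 CPM in vehicle libraries. Amacr, the racemase that prepares branched chains for the cycle, averaged 10.5 ± 1.85 CPM in cuprizone and 11.6 ± 0.102 CPM in vehicle libraries. Phyh, which starts the alpha-oxidation of phytanic acid, averaged 139 ± 29.7 CPM in cuprizone and 137 ± 16.6 CPM in vehicle libraries. Their log2 fold changes, in the order Scp2, Amacr and Phyh, were 0.08, -0.15 and 0.02, with adjusted p of 0.777, 0.616 and 0.967 in edgeR.

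Scaled by exonic length, the levels of the members spread widely in both diets. Phyh was the highest, at 73.3 CPM per kb in cuprizone and 72.4 CPM per kb in vehicle libraries, followed by Cat at 49.0 CPM per kb in cuprizone and 59.2 CPM per kb in vehicle libraries. Pex5l was the third in vehicle libraries, at 44.3 CPM per kb, and stood at 18.5 CPM per kb in cuprizone libraries, below, among others, Hsd17b4 (31.8 CPM per kb), Ech1 (30.7 CPM per kb) and Pex19 (27.8 CPM per kb). Pex7 and Pex26 were the lowest, at 2.15 and 2.60 CPM per kb in cuprizone and 2.11 and 2.20 CPM per kb in vehicle libraries. The length joins the exons of all annotated transcripts, so a gene with long rare transcripts, such as Pex7 with 12092 bases, appears lower than its main transcript would. Exons of 10 of the 27 members overlap another gene on the opposite strand, by 2 to 1776 bases, and those of Agps overlap none. Exons of Gnpat also share 280 bases with Gm16163 on the same strand, so some of its reads could belong to that gene.

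The lean to lower values differed between the cuprizone libraries. Cuprizone replicate 32 had the lowest cuprizone value for 22 of 27 members, beside 41.0% of all genes tested, and the lowest of all 6 values for 18, beside 27.1% of all genes. The median over the members of the log2 difference from the vehicle mean was -0.16, -0.0044 and -0.38 in cuprizone replicates 30, 31 and 32, so that in replicate 31 the median member stood at the vehicle level. In replicate 32 the astrocyte markers summed to 15779 CPM and the progenitor markers to 524 CPM, the lowest of all 6 libraries, while the microglia and macrophage markers (3439 CPM), the neuron markers (3167 CPM) and the endothelium and pericyte markers (126 CPM) were at their highest. The endothelium and pericyte markers summed to 81.9 and 57.6 CPM in cuprizone replicates 30 and 31, against 53.9 to 59.8 CPM in vehicle libraries, with 5 of 6 at a positive log2 fold change and a median of 1.15. The part of these shifts in the members' values was not tested. Without replicate 32 the members' median log2 fold change was -0.08 and 1 member, Agps, was called (5.75% of all genes were called lower and 2.77% higher), and without replicate 31 the median was -0.29.

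Other genes of the pathway gave few calls as well. None of the 4 other peroxins passed edgeR's test. At an unadjusted p under 0.05, 1 was lower (12.8% of all genes), and DESeq2 called 1 lower (8.46% of all genes). Of 19 tested genes of further oxidation and transport 1 was called lower (5.26%, beside 5.7% of all genes), with a list median of -0.03. It was Acsl1, which activates long-chain fatty acids at several membranes, peroxisomes included, with 32.4, 37.3 and 32.7 CPM in cuprizone replicates 30, 31 and 32, against 88.3, 88.2 and 88.4 CPM in vehicle replicates 24, 26 and 27. Its log2 fold change was -1.37 ± 0.11 (adjusted p = 0.00127 in edgeR), and it passed in all 13 alternatives. Exons of Acsl1 share 1039 bases with Gm45244 on the opposite strand.

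Of 18 tested genes of the matrix and membrane none passed edgeR's test. At an unadjusted p under 0.05, 3 were lower and 2 higher, beside 12.8% and 10.5% of all genes. DESeq2 called 1 lower (8.46% of all genes), and 1 was higher in edgeR without cuprizone replicate 32 (2.77% of all genes). The smallest p there was that of Tysnd1, a peroxisomal protease that trims imported oxidation enzymes, at 33.1 ± 0.591 CPM in cuprizone and 42.5 ± 1.84 CPM in vehicle libraries (adjusted p = 0.0724). Of 12 regulators and turnover genes 2 were called lower (16.7%, beside 5.7% of all genes) and 1 higher (8.33%, beside 1.87%) in edgeR. Usp30, a deubiquitinase of mitochondria and peroxisomes, averaged 49.9 ± 6.34 CPM in cuprizone and 123 ± 8.82 CPM in vehicle libraries. It fell by 1.30 on the log2 scale (adjusted p = 0.00241). Its exons share 329 bases with Alkbh2 and 161 bases with Svop on the opposite strand. Tfeb, a regulator of lysosome genes, averaged 47.1 ± 5.18 CPM in cuprizone and 89.6 ± 14.6 CPM in vehicle libraries and fell by 0.93 (adjusted p = 0.0133, and 0.0633 or 0.0588 without cuprizone replicate 30 or vehicle replicate 26). Rxrg, a retinoid receptor of the family that pairs with the PPARs, averaged 23.1 ± 5.75 CPM in cuprizone and 10.1 ± 2.45 CPM in vehicle libraries (log2 fold change 1.19, adjusted p = 0.0308, and 0.0613 to 0.0879 without cuprizone replicate 31 or vehicle replicate 24, 26 or 27).

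Fatty acid oxidation in mitochondria is the companion pathway. None of its 18 genes passed edgeR's test. At an unadjusted p under 0.05, 4 were lower and 1 higher, where 12.8% of all genes were lower and 10.5% higher. DESeq2 called 2 lower (8.46% of all genes). A negative log2 fold change was found for 15 (83.3%), beside 66.7% of the 27 members and 47.4% of all genes tested. The list median was -0.12, beside -0.13 for the 27 members and 0.02 for all genes tested. Echs1, the short-chain enoyl-CoA hydratase, had the smallest p of that list, at 82.2 ± 6.93 CPM in cuprizone and 110 ± 6.14 CPM in vehicle libraries (adjusted p = 0.0739). The difference between the lists was not tested.

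**Figure D4:**
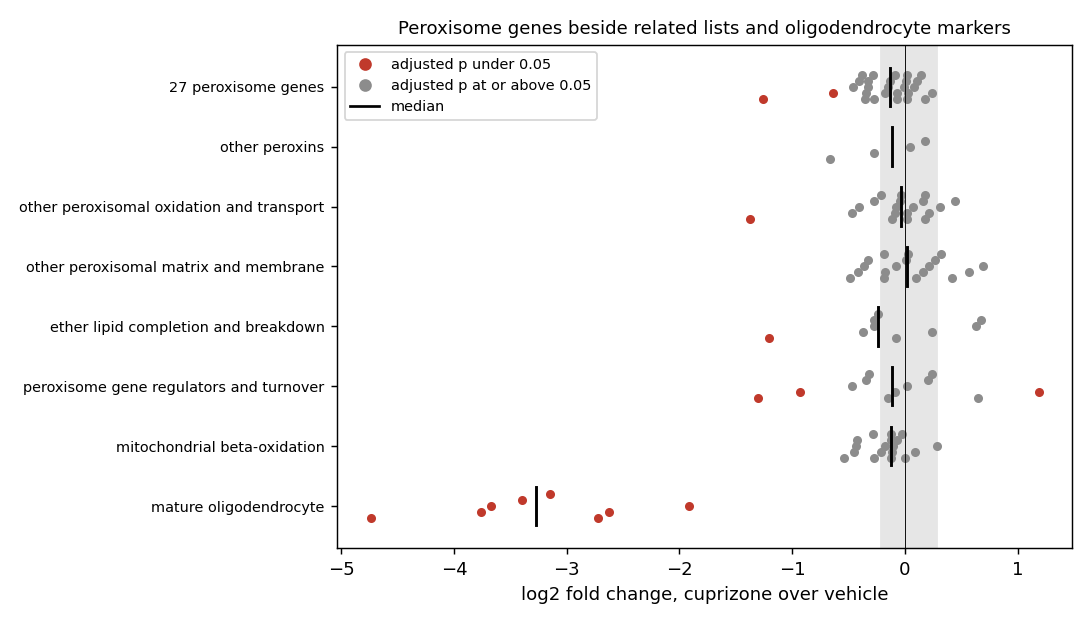
Log2 fold change, cuprizone over vehicle, of each tested gene (points, red where the adjusted p in edgeR is under 0.05) on the x axis, by list down the y axis, with the list's median as a black bar and the interquartile range of all genes tested as a grey band. The 27 peroxisome genes centre on -0.13 with 2 red points, the mitochondrial list on -0.12 with 0, and the mature oligodendrocyte markers on -3.27 with all 8 red.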

How the data were processed

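The authors deposited raw read counts per Ensembl mouse gene, 1 column a library. Per the submitters' processing notes, bcl2fastq 2.17 and build mm10 were used. The aligner, the counter and whether strand was used are not stated there or in the labels. Columns were matched to samples by title. Names, coordinates and lengths came from GENCODE M21 (GRCm38), which matched 37693 of 39017 identifiers.

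Counts were filtered with filterByExpr (minimum count 10, minimum total 15), scaled with TMM and tested with glmQLFit (robust) and glmQLFTest in edgeR 4.0.16 (R 4.3.3), 2-sided, adjusted by Benjamini-Hochberg over 16569 genes. Replicates were compared by chi-square per degree of freedom, 26.6 to 101 among cuprizone and 24.4 to 30.6 among vehicle libraries, so none was a duplicate. A permutation of 3 against 3 libraries cannot give a p below 0.1, so none was run. Standard errors are the log2 fold change over the square root of F. The fit was tested on simulated data. Alternatives were other scalings and filters, DESeq2 1.42.0, limma-voom (limma 3.58.1) and each library left out.

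The members and lists were chosen with earlier results of these data known, the GC box after the members' results were seen. All members are named, those past the threshold or with the smallest p of a role in full. Of other lists, genes past the threshold or the smallest p are named, except 1 that is not reported here. Mpv17 of these lists had no row by that name.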

Additional observations from a re-analysis of the deposited data

How the results depend on the processing

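The members called numbered 2 lower and 0 higher in 6 of the 7 alternatives that kept all libraries. Of all genes, those 6 called 3.78% to 6.07% lower and 1.29% to 2.15% higher. DESeq2 called 3 members lower and 0 higher, beside 8.46% and 5.21% of all genes. With a single library left out, 0 to 2 members were lower and 0 higher, beside 2.81% to 5.75% and 0.385% to 2.77% of all genes. The members' median log2 fold change then ran from -0.29 to -0.08. Over all genes, 65 to 464 were higher and 474 to 963 lower with a library left out, and DESeq2 called 862 higher. Agps passed in 11 of 13 alternatives and Pex5l in 8 of 13, and no sign changed for either. The sign of Abcd3 changed with RLE scaling (0.0032), upper-quartile scaling (0.047), no filter on low counts (0.0064) and DESeq2 (0.0032), and that of Phyh with limma-voom (-0.0020). With a library left out, values crossed 0 for Abcd3 (-0.16 to 0.20), Pex7 (-0.11 to 0.19), Pex11a (-0.018 to 0.29), Pxmp2 (-0.13 to 0.14), Phyh (-0.15 to 0.16), Pex13 (-0.29 to 0.038), Pex14 (-0.018 to 0.036), Pex5 (-0.10 to 0.0049) and Scp2 (-0.019 to 0.17). The cause was not tested. No paired analysis was possible because the groups share no replicate number. With 3 libraries a group, the 95% interval was -1.88 to -0.63 for Pex5l and -0.48 to 0.47 for Abcd3.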

Other observations

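The 27 members together took 0.161%, 0.180% and 0.145% of all counts in cuprizone replicates 30, 31 and 32, against 0.175%, 0.173% and 0.177% in vehicle replicates 24, 26 and 27. The vehicle shares lay close together, and the cuprizone shares fell on both sides of them. These are shares of raw counts, without the TMM factors that the CPM values above include. Those factors were 1.11, 1.05 and 1.09 in cuprizone replicates 30, 31 and 32, against 0.915, 0.941 and 0.919 in vehicle replicates 24, 26 and 27. A factor above 1 lowers a CPM value and one below 1 raises it, so the position of the shares does not carry over to CPM.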
